A study of Mus musculus with 15 samples.

Results

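The genes described here are those of the collagen chains and of other matrix proteins known from fibroblast scar, measured as RNA in the mouse optic nerve. Which cells made the RNA was not tested. They were taken by name from the expression table: every numbered collagen chain gene, lysyl oxidase (Lox) and its relatives Loxl1, Loxl2 and Loxl3, and Fn1, Postn, Lum, Dcn, Bgn, Mgp, Thbs1, Thbs2, Sparc, Fbn1 and Eln. The rule gave 47 of the 14237 listed genes, found by name alone, with the list of names drawn up when earlier results of these data were known. All 47 passed the filter on low counts.

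Optic nerve RNA of C57BL/6J mice, labelled adult, was sequenced, with 5 biological replicates in each of 3 groups. In the sham group the vector AAV2-null, which carries no CNTF, had been injected into the vitreous, and the nerve was exposed but not crushed. In the crush AAV-null group the same vector was injected 2 weeks before the optic nerve was crushed, and nerves were collected 7 days after crush. In the crush AAV-CNTF group the vector instead encoded a secretable form of CNTF (ciliary neurotrophic factor), with the same times. The labels do not give the times for the sham group, the promoter of the vector, or how much of the nerve around the injury was taken. All groups received a viral vector, and no sham group with AAV-CNTF and no uninjected group is described. Replicates are numbered 2 to 6 in every group, and values per library are given below in that order. The nerve holds many cell types, so a higher level can come from more cells of a type or from more RNA per cell, and these cannot be told apart.

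Collagen chains assemble into a triple helix. Fibrillar types (I, II, III, V and XI among them) pack into the fibrils that give scar its tensile strength, type IV forms the mesh of basement membranes, and fibril-associated types decorate the fibrils. Lysyl oxidases crosslink collagen and elastin, fibronectin is the provisional matrix onto which collagen is deposited, and small leucine-rich proteoglycans set fibril width. In the uninjured optic nerve this matrix lies mainly in the dural and pial sheaths, the septa and the vessel walls, and central nervous system injuries that breach these can form a fibrotic scar around fibroblasts and pericyte-like cells.

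Library totals ran from 19856688 to 29558293 expected counts over the listed genes. In a principal component analysis the first component (33.5% of variance) separated sham libraries, at -87.0 to -54.8, from crushed ones, at 20.3 to 47.2. Crush AAV-null replicate 6 stood apart on the second component, at 99.7 with the other libraries between -24.0 and 8.98, and 3.18% of genes had no count in it against 0.976% to 2.32% elsewhere. The count of matrix genes higher after crush, given below as 35, was 36 without that library. Levels are given in CPM (counts scaled to library size, with TMM factors) for one gene across libraries. Levels of different genes are compared in FPKM, which also divides by gene length. Differences between groups were tested with edgeR's quasi-likelihood test, with p-values adjusted by Benjamini-Hochberg over all 14194 genes tested and a threshold of 0.05. Log2 fold changes are given ± their standard error, from 5 libraries a group.

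Crush was compared with sham, both with AAV-null, to ask how the matrix genes differ in the injured nerve. Of the 47 genes, 35 were higher and 1, Col11a2, was lower. Over all genes tested 14.7% were higher and 12.9% lower. An increase of at least 2-fold was found for 32 of the 47, against 7.05% of all genes. The median log2 fold change of the 47 was 1.41, and over all genes it was 0.00. The 5 crushed libraries all lay above the 5 sham libraries for 33 of the 47 genes, which was so for 10.5% of all genes, and all below for 1 (10.1% of all genes). That count is in CPM, as is every statement below on overlap that names no unit. In FPKM it was 32 above (11.8% of all genes) and 0 below (4.6%), with Col16a1, Col9a3, Col11a2 and Sparc differing between the units. The 11 genes that did not pass were Sparc, Col4a6, Col8a2, Col9a1, Col9a2, Col22a1, Col27a1, Col15a1, Col13a1, Col23a1 and Dcn. Together the 47 genes took 0.489% to 0.950% of expected counts in sham libraries, 1.55% to 2.52% in crush AAV-null libraries and 1.55% to 3.19% in crush AAV-CNTF libraries. The authors' deposited table gave 36 of the 47 as higher and 1 as lower in this comparison. Of all 14237 listed genes it gave 2006 as higher and 1780 as lower.

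**Figure D1:**
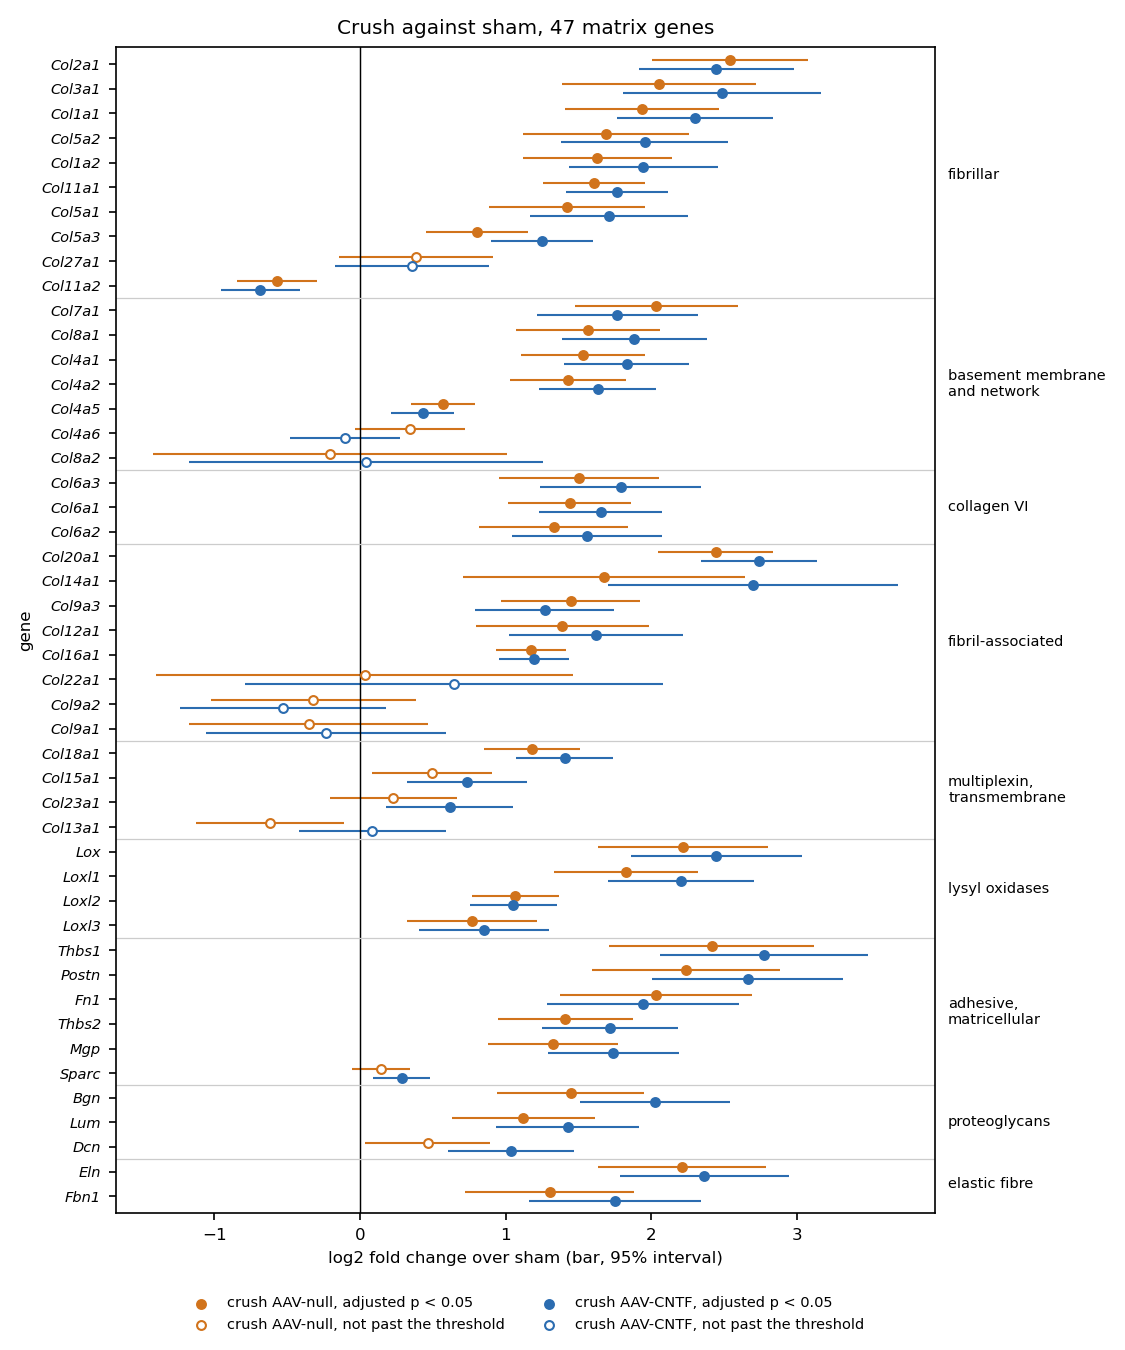
Log2 fold change of each of the 47 matrix genes (horizontal axis) with its 95% interval (bar) after crush against sham with AAV-null, and for crush with AAV-CNTF against the same sham libraries, grouped by protein class; filled points passed the threshold. Most points lie to the right of 0, with Col11a2 to the left in both comparisons.

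Of the 10 fibrillar chain genes 8 were higher after crush, Col11a2 was lower and Col27a1 did not pass. Col1a1, the main chain of the type I collagen of scar and tendon, was at 479.8, 749, 928, 554 and 372 CPM in the sham libraries. After crush with AAV-null it was at 1719, 2394, 1967, 3019 and 2686 CPM, and after crush with AAV-CNTF at 1721, 3734, 3269, 4409 and 2038 CPM. The lowest crushed library was above the highest sham library, and crush raised Col1a1 by 3.82-fold, with a 95% interval of 2.65 to 5.52 (log2 fold change 1.94 ± 0.25, adjusted p = 6.69e-06). Its partner chain Col1a2 rose as well (log2 fold change 1.63 ± 0.24, adjusted p = 3.04e-05), with sham libraries between 205 and 460.0 CPM and crush AAV-null libraries between 754 and 1296 CPM.

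Col3a1, the chain of the type III collagen of early repair tissue, was at 301, 452, 649, 288 and 191 CPM in sham nerves and at 1061, 1602, 1166, 1969 and 2000.0 CPM after crush with AAV-null. It rose by 4.15-fold, with a 95% interval of 2.61 to 6.59 and no overlap between the groups (log2 fold change 2.05 ± 0.32, adjusted p = 4.93e-05). The 3 chains of type V collagen, which starts and narrows type I fibrils, were higher too, with log2 fold changes of 1.42 for Col5a1, 1.69 for Col5a2 and 0.80 for Col5a3. The FPKM ratio of Col5a1 to Col5a2 was 1.28 ± 0.12 (SD, n = 5) in sham nerves, 0.94 ± 0.08 after crush with AAV-null and 0.92 ± 0.07 with AAV-CNTF. In FPKM its sham range of 1.11 to 1.41 did not overlap the crush AAV-null range of 0.836 to 1.04. In CPM the ratios of these 2 groups overlapped. Sham replicate 3 had 106.6 CPM of Col5a1 to 87.35 of Col5a2, and crush AAV-null replicate 2 had 191.5 to 140.5 CPM. The separation thus depends on the division by length. For Col1a1 over Col1a2 the FPKM ratio was 1.36 ± 0.16, 1.53 ± 0.08 and 1.51 ± 0.32 (SD, n = 5) in sham, crush AAV-null and crush AAV-CNTF libraries, with overlapping ranges.

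Type XI collagen is built from the products of Col11a1, Col11a2 and Col2a1, and is best known from cartilage. These 3 genes did not move alike. Col2a1, which also makes the type II collagen of cartilage, had the highest log2 fold change of the 47 genes after crush (log2 fold change 2.54 ± 0.26, adjusted p = 2.55e-07), from a low level. It was at 3.53, 4.20, 6.70, 6.43 and 2.96 CPM in sham libraries and at 34.03, 14.6, 32.5, 29.2 and 27.7 CPM after crush with AAV-null, without overlap, crush AAV-null replicate 3 being the lowest of the crushed libraries. Col11a1 rose from 17.5, 20.1, 20.9, 28.96 and 13.1 CPM to 65.03, 54.9, 67.3, 65.2 and 53.9 CPM (log2 fold change 1.61 ± 0.17, adjusted p = 3.91e-07). Col11a2 was the one gene of the 47 that fell.

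Its sham libraries were at 56.1, 60.9, 59.6, 66.6 and 71.0 CPM, the crush AAV-null libraries at 46.01, 31.9, 44.9, 43.3 and 45.6 CPM and the crush AAV-CNTF libraries at 34.1, 43.6, 41.3, 32.5 and 44.1 CPM. In CPM every crushed library was below every sham library (log2 fold change -0.57 ± 0.13, adjusted p = 0.00212 with AAV-null). In FPKM they met, with crush AAV-null replicate 3 at 12.71 FPKM and sham replicate 6 at 12.70 FPKM, and Col11a2 was still lower after crush by limma on log2(FPKM + 1) with Benjamini-Hochberg adjustment. As an FPKM ratio, Col11a2 over Col11a1 went from 4.53 ± 0.80 (SD, n = 5) in sham nerves to 0.96 ± 0.25 after crush with AAV-null and 0.68 ± 0.16 with AAV-CNTF. The sham range of 3.87 to 5.87 and the crush AAV-null range of 0.643 to 1.23 were far apart, a ratio looked at after the values of both genes had been seen. Of 9 marker genes of cartilage, sclera and tendon only Comp and Chad were among the listed genes. Chad, a leucine-rich cartilage protein, was lower after crush (log2 fold change -1.87, adjusted p = 0.0460), and Comp did not pass (log2 fold change -0.32, adjusted p = 0.743). The part of such tissue in the values of Col2a1, Col11a1 and Col11a2 was not tested.

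The promoter letters of the genes that moved apart, Col11a1 and Col11a2, are shown here, with those of Col3a1 as a strongly raised fibrillar gene. Each is the 120 bases before the RefSeq start on the plus strand (GRCm38.p6), at chr3:114030420-114030539 for Col11a1, chr17:34039018-34039137 for Col11a2 and chr1:45311418-45311537 for Col3a1. Capitals mark matches, on either strand, to any of 3 short promoter words. The first is CCAAT, where the factor NF-Y can bind. The second is TATAAA, the core promoter word placed upstream of some starts. The third is GGGCGG, the core of the word bound by Sp1.
Col11a1: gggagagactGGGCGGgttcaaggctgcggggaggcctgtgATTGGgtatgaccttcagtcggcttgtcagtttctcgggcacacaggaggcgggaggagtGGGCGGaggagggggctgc
Col11a2: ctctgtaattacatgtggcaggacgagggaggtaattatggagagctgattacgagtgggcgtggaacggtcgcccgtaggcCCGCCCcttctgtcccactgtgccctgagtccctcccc
Col3a1: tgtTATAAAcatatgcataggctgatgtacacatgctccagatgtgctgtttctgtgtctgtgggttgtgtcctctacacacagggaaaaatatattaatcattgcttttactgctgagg
Col11a1 holds GGGCGG starting 110 and 19 bases before the start and CCAAT on the reverse strand at 79 bases. Col11a2 holds GGGCGG on the reverse strand at 38 bases and neither other word in this window. Col3a1 holds TATAAA at 117 bases. RefSeq promoter windows were matched for 30 of the 47 genes, as 34 windows. Over 250 bases before the start, both strands, GGGCGG was in 58.8% of these windows and in 32.7% of all 32851, CCAAT in 32.4% against 33.8%, and TATAAA in 14.7% against 12.4%. The windows of the matrix genes had a median GC content of 59.2% and all windows 52.4%. No matches overlap in the sequences printed, and a match describes the sequence only.

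Of the 7 genes for basement membrane and network collagens 5 were higher after crush, and Col4a6 and Col8a2 did not pass. Col4a1, the chain found with Col4a2 in nearly all basement membranes, was at 117, 191, 196, 171 and 115 CPM in sham libraries and at 387, 515, 389, 455 and 535 CPM after crush with AAV-null. The groups did not overlap (log2 fold change 1.53 ± 0.20, adjusted p = 8.11e-06). Col4a2 rose by a like amount (log2 fold change 1.43 ± 0.19), and the FPKM ratio of the 2 chains was 1.40 ± 0.30 in sham, 1.47 ± 0.08 in crush AAV-null and 1.52 ± 0.25 in crush AAV-CNTF libraries (SD, n = 5). Col7a1, which makes the anchoring fibrils below epithelia, and Col8a1, a network collagen of vessel walls, were the other network genes to rise along with Col4a5, with log2 fold changes of 2.04, 1.57 and 0.57.

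Col4a1 and Col4a2 lie head to head on chromosome 8 and overlap by 22 bases at their starts in the RefSeq annotation (GRCm38.p6). The shared stretch, chr8:11312805-11312826 on the plus strand, is shown because the pair rose together; capitals mark GGGCGG.
Col4a1 and Col4a2: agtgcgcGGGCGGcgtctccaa
Col4a5 and Col4a6 are also arranged head to head, with 1308 bases between them, and 1 of them passed the test. Col4a5 was at 55.3, 66.5, 66.3, 63.8 and 69.3 CPM in sham libraries and at 113, 82.2, 95.7, 85.8 and 101 CPM after crush with AAV-null, without overlap (adjusted p = 0.000265). Col4a6 was at 70.3, 82.5, 80.9, 87.6 and 75.1 CPM and 140.0, 66.5, 90.8, 90.3 and 116 CPM, with overlap (log2 fold change 0.34 ± 0.18, adjusted p = 0.176). Whether the 2 changes differ from each other was not tested. Other neighbours within 100 kb were Col3a1 with Col5a2 and Col6a1 with Col6a2, where both rose, and Lum with Dcn, where Lum alone passed. These neighbours were picked out after the values had been seen.

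The 3 chains of collagen VI, which forms beaded filaments around cells and vessels, all rose, with log2 fold changes between 1.33 and 1.50. Col6a1 was at 47.5 FPKM on average in sham, 145 FPKM in crush AAV-null and 169 FPKM in crush AAV-CNTF libraries (log2 fold change 1.44 ± 0.20, adjusted p = 1.43e-05 after crush with AAV-null). Its FPKM ratio to Col6a2 was 1.01 ± 0.15 in sham, 1.05 ± 0.09 in crush AAV-null and 1.05 ± 0.14 in crush AAV-CNTF libraries (SD, n = 5), with overlapping ranges.

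Of the 8 fibril-associated collagen genes 5 were higher after crush (Col9a3, Col12a1, Col14a1, Col16a1 and Col20a1). Col20a1 had the lowest p of the 47 genes. It was at 9.70, 11.1, 11.2, 6.54 and 8.82 CPM in sham libraries and at 65.2, 40.5, 49.02, 55.8 and 47.1 CPM after crush with AAV-null, a rise of 5.44-fold, with a 95% interval of 4.14 to 7.14 and no overlap (log2 fold change 2.44 ± 0.19, adjusted p = 7.36e-09). Col16a1, which binds to fibril surfaces, rose by less (log2 fold change 1.18 ± 0.12, adjusted p = 1.77e-07). Its sham and crush AAV-null libraries did not overlap in CPM, and in FPKM they did, with sham up to 46.6 and crush AAV-null from 43.2 FPKM. Of the chains of collagen IX, which coats cartilage fibrils, Col9a3 was higher (log2 fold change 1.45 ± 0.23), while Col9a1 (-0.35 ± 0.39, adjusted p = 0.567) and Col9a2 (-0.32 ± 0.34, adjusted p = 0.54) did not pass. Col22a1 did not pass either and was near the lower limit, with 210 counts over the 5 sham libraries together.

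Of the 4 multiplexin and transmembrane collagens 1 was higher after crush, and their median log2 fold change was 0.36. The one that rose was Col18a1, a basement membrane collagen and the source of endostatin (log2 fold change 1.18 ± 0.16, adjusted p = 8.74e-06). Col15a1, its relative in vessel and muscle basement membranes, and Col23a1 and Col13a1, which span the cell membrane, did not pass. Col15a1 (log2 fold change 0.50 ± 0.20, adjusted p = 0.0679) passed without sham replicate 3, crush AAV-null replicate 2 or 6 or crush AAV-CNTF replicate 5, at 0.50 to 0.65, and with DESeq2, limma-voom or a replicate block. Col13a1 was at 23.3, 19.1, 24.2, 15.3 and 20.97 CPM in sham libraries, 13.6, 10.1, 20.7, 14.2 and 8.42 CPM after crush with AAV-null and 30.7, 27.3, 17.7, 14.97 and 18.6 CPM after crush with AAV-CNTF. Sham and crush AAV-null libraries overlapped, and the log2 fold change was -0.62 ± 0.24 (adjusted p = 0.0651). It passed when sham replicate 5 was left out (log2 fold change -0.71, adjusted p = 0.0457) or crush AAV-null replicate 4 (-0.83, adjusted p = 0.0136), so that 2 genes were lower.

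All 4 lysyl oxidase genes were higher after crush. Lox, which crosslinks collagen and elastin, was at 14.8, 31.4, 47.3, 33.2 and 24.5 CPM in sham libraries, 102, 164, 99.6, 172 and 165 CPM after crush with AAV-null and 84.5, 234, 162, 216 and 128 CPM after crush with AAV-CNTF. It rose by 4.65-fold, with a 95% interval of 3.1 to 6.98 and no overlap between sham and crush AAV-null (log2 fold change 2.22 ± 0.28, adjusted p = 4.3e-06). Loxl1, which acts mainly on elastin, Loxl2, which acts on basement membrane collagen, and Loxl3 had log2 fold changes of 1.83, 1.07 and 0.77. On log2(FPKM + 1) Loxl3 missed the threshold (0.98, adjusted p = 0.0562). Exons of Loxl2 and Loxl3 overlap another listed gene on the opposite strand, Gm27177 and Htra2, as do those of Col4a1 and Col4a2 with each other. Exons of Col3a1 and Col20a1 overlap one on the same strand, Gm47302 and BX649560.1. Reads there could have been shared between genes, and whether counting used strand is not given. Expected counts were not whole numbers in 15 libraries for Loxl2 and Loxl3 and in 14 for Col3a1. For Col20a1, Col4a1 and Col4a2 they were whole in every library. Fbn1, with no such overlap, had counts that were not whole in 10 libraries. The effect of shared reads was not tested.

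Of the 6 adhesive and matricellular genes 5 rose, and the exception was the most abundant gene of all 47. Fn1, fibronectin, was at 1218, 2074, 2490.0, 1004 and 622 CPM in sham libraries and 3491, 8785, 5013, 6031 and 6959 CPM after crush with AAV-null. It rose by 4.09-fold, with a 95% interval of 2.59 to 6.46 and no overlap (log2 fold change 2.03 ± 0.32, adjusted p = 4.89e-05). Thbs1, thrombospondin-1, which activates latent TGF-beta, was at 9.90, 18.7, 22.5, 17.9 and 4.98 CPM and 73.7, 104, 46.5, 74.97 and 94.8 CPM, again without overlap (log2 fold change 2.41 ± 0.34, adjusted p = 1.42e-05). Postn, periostin, which ties collagen to the cell surface and aids its crosslinking, rose from 20.04, 32.95, 33.4, 20.7 and 17.5 CPM to 75.2, 106, 107, 144 and 155 CPM (log2 fold change 2.24 ± 0.31, adjusted p = 1.22e-05). Thbs2, a related thrombospondin, and Mgp, an inhibitor of calcification, had log2 fold changes of 1.41 and 1.33.

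The 120 bases before the RefSeq start of Postn (GRCm38.p6, plus strand, chr3:54360987-54361106) are given because the gene was among the most strongly raised and holds TATAAA, in capitals, 26 bases before the start.
Postn: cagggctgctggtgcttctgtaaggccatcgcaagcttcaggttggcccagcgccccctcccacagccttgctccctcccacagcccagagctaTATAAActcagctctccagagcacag
Sparc, a collagen-binding glycoprotein that astrocytes and other glia also make, was at 2100.0, 1803, 2106, 1945 and 1820.0 CPM in sham libraries and 2163, 1951, 2061, 2269 and 2371 CPM after crush with AAV-null. The groups overlapped in CPM, and in FPKM they did not (sham up to 1194, crush AAV-null from 1318 FPKM). The difference by edgeR did not pass the threshold (log2 fold change 0.15 ± 0.09, adjusted p = 0.283, 95% interval -0.05 to 0.34). The interval excludes a 2-fold rise. With limma on log2(FPKM + 1) Sparc passed (0.36, adjusted p = 0.0226), on a scale where the median of all genes lay at 0.16.

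Of the 3 small leucine-rich proteoglycans Bgn (biglycan) and Lum (lumican) rose, with log2 fold changes of 1.45 ± 0.24 and 1.12 ± 0.23. Dcn, decorin, which binds collagen and restrains TGF-beta, was at 236, 359.8, 238, 309 and 227 CPM in sham libraries, 357, 340.5, 269.9, 397 and 527 CPM after crush with AAV-null and 374, 615, 598, 847 and 376 CPM after crush with AAV-CNTF. Sham and crush AAV-null libraries overlapped (log2 fold change 0.47 ± 0.20, adjusted p = 0.101). Fitted on the 10 compared libraries alone, Dcn passed (0.46, adjusted p = 0.0395). It also passed in the authors' deposited table (0.47, deposited adjusted p = 0.0180). Both elastic fibre genes rose. Eln, elastin, was at 115, 259, 231, 168 and 115 CPM in sham libraries and 699, 767, 648, 1142 and 849 CPM after crush with AAV-null, without overlap (log2 fold change 2.21 ± 0.28, adjusted p = 3.81e-06). Fbn1, the main fibrillin of microfibrils, had a log2 fold change of 1.30 ± 0.28.

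**Figure D2:**
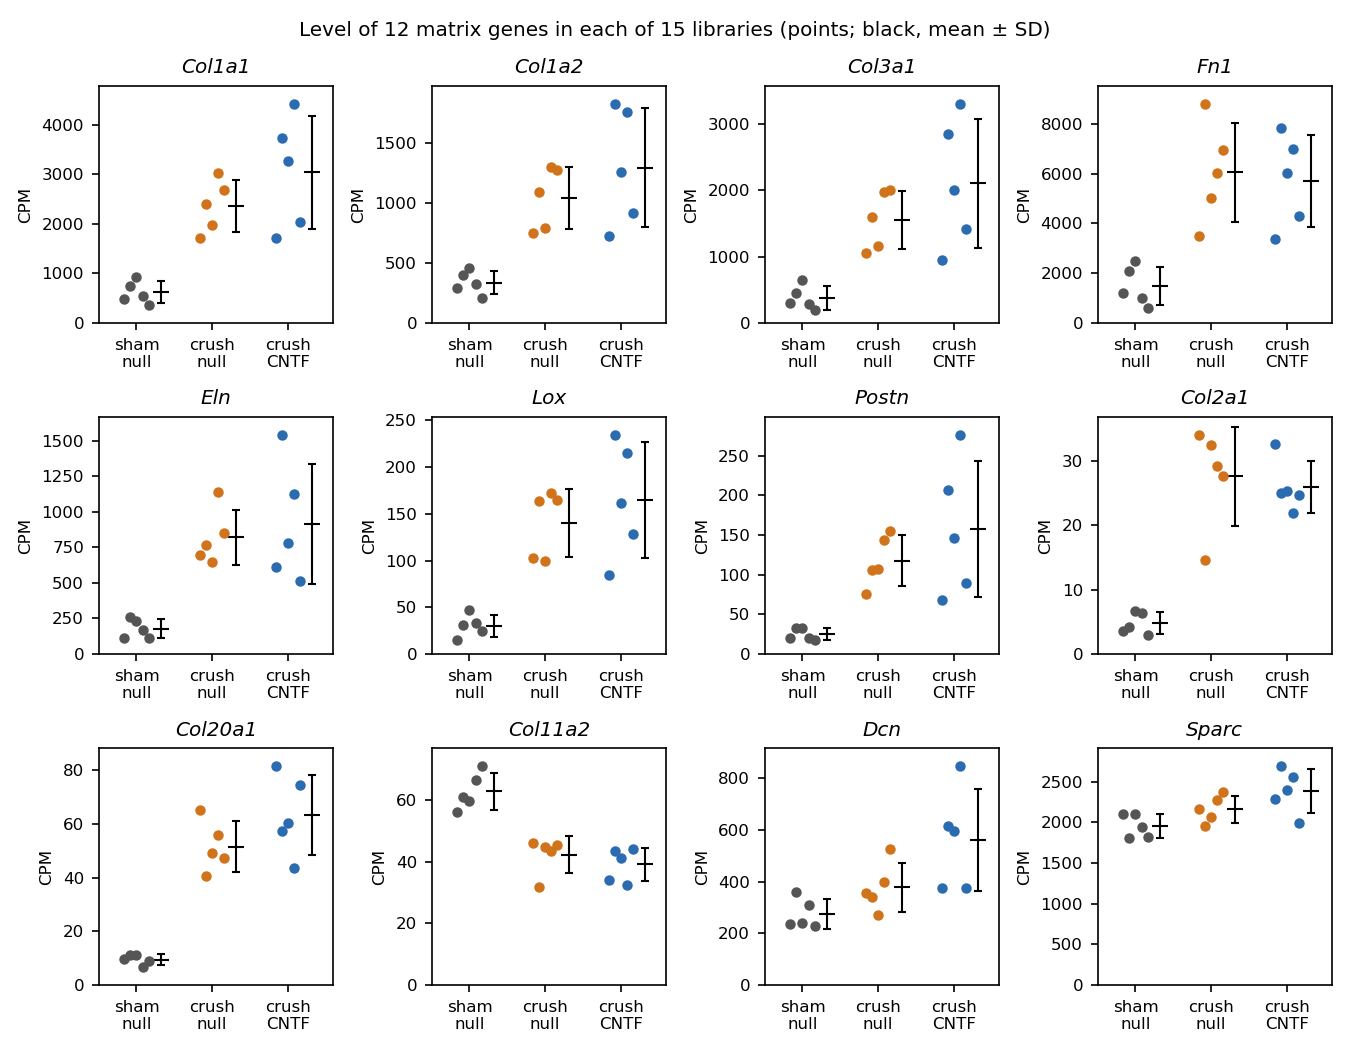
CPM (vertical axis, from 0, one scale per gene) of 12 matrix genes in each of the 15 libraries (points) with the mean and SD of each group of 5 (black). For Col1a1 every crushed library lies above every sham library, Col11a2 runs the other way, and Sparc and Dcn overlap between sham and crush AAV-null.

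Measured per length, the order of the genes shifted. In sham nerves Sparc was by far the highest at 1089 ± 93.4 FPKM (SD, n = 5), followed by Fn1 at 194 ± 108 and Dcn at 162 ± 30.0 FPKM. Fn1, Dcn, Mgp (128 ± 36.8 FPKM) and Col1a1 (104 ± 35.6 FPKM) had overlapping libraries, so their order is not fixed. After crush with AAV-null the order was Sparc (1393 ± 99.2 FPKM), Fn1 (889 ± 322), Col1a1 (429 ± 89.5), Mgp (372 ± 112) and Col3a1 (362 ± 115), and Dcn, at 253 ± 63.0 FPKM, had moved from 3rd to 9th. Fn1 (502 to 1370 FPKM) overlapped both Sparc (from 1318 FPKM) and Col1a1 (up to 536 FPKM). The libraries of Col1a1, Mgp and Col3a1 overlapped, as did those of Dcn (184 to 356 FPKM) with Bgn, Eln and Col1a2. The order of these genes after crush is therefore not fixed. Col11a2 moved from 19th to 38th by mean, and its place is not fixed either. Sparc made up 46.0% ± 6.30 of the summed FPKM of the 47 genes in sham nerves, 24.9% ± 3.76 after crush with AAV-null and 23.5% ± 4.42 with AAV-CNTF (SD, n = 5). Fibrillar collagens made up 12.3% ± 2.16, 20.6% ± 1.93 and 22.1% ± 3.17 in the same groups, and elastic fibre proteins 2.61% ± 0.53, 5.56% ± 0.87 and 5.18% ± 1.08. Without Sparc the summed level was 1321 ± 367 FPKM in sham, 4314 ± 918 FPKM in crush AAV-null and 5206 ± 1770 FPKM in crush AAV-CNTF libraries (SD, n = 5).

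AAV-CNTF was compared with AAV-null in crushed nerves, to ask whether the cytokine changes this matrix. None of the 47 genes passed the threshold in either direction. Over all genes 0.0423% were higher and 0.0141% lower, 8 genes in all. By edgeR's unadjusted p below 0.05 there were 6 of the 47 (12.8%, against 7.69% of all genes), namely Bgn, Col13a1, Col14a1, Col4a6, Col5a3 and Dcn. DESeq2 gave 5, limma-voom 8 and limma on log2(FPKM + 1) 3 at that level, and none after adjustment. The lowest adjusted p was 0.424. No gene had its AAV-CNTF libraries all above its AAV-null libraries (0.838% of all genes) or all below them (0.712%). In the authors' deposited table none of the 47 passed either, while 59 of all 14237 listed genes were higher there and 20 lower.

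The estimates were above 0 for 37 of the 47 genes, against 49.5% of all genes, with a median log2 fold change of 0.25 and of -0.00 over all genes. Over 24 alternative settings that number ran from 35 to 39, and 9 genes changed the sign of their estimate in at least 1 of them, Fn1, Eln and Loxl2 among them. Many of the 47 genes were high or low together in a library, so that this count is not 47 separate observations. Of the main scar components, Col1a1 had a log2 fold change of 0.36 ± 0.25 (95% interval -0.15 to 0.88, adjusted p = 0.822). For Col3a1 it was 0.43 ± 0.31 (-0.21 to 1.08), for Lox 0.23 ± 0.27 (-0.32 to 0.78) and for Fn1 -0.09 ± 0.30 (-0.72 to 0.55). The estimate for Fn1 was above 0 without crush AAV-null replicate 3 (0.09) or crush AAV-CNTF replicate 2 (0.05). For Col1a1 the interval runs from 0.902-fold to 1.84-fold of the AAV-null level. The median distance from estimate to interval end over the 47 genes was 0.50 on the log2 scale.

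The 3 genes with the lowest p were Col13a1, Dcn and Col5a3. Col13a1, with the values given above, had a log2 fold change of 0.70 ± 0.24 (adjusted p = 0.424), and for Dcn it was 0.57 ± 0.20 (adjusted p = 0.449). Col5a3 was at 75.0, 58.0, 61.1, 62.5 and 60.5 CPM with AAV-null and 78.8, 84.98, 73.3, 111 and 83.4 CPM with AAV-CNTF, with overlap (log2 fold change 0.45 ± 0.17, adjusted p = 0.464). The highest estimate was that of Col14a1, which sits on fibrils in dense connective tissue. It was at 33.5, 42.7, 24.7, 67.4 and 80.2 CPM with AAV-null and 28.9, 120.1, 91.04, 217 and 48.4 CPM with AAV-CNTF, a wide spread with overlap (log2 fold change 1.02 ± 0.45, adjusted p = 0.597). Col4a6 had the lowest estimate, with 140.0, 66.5, 90.8, 90.3 and 116 CPM against 109, 54.9, 60.4, 68.1 and 75.9 CPM (log2 fold change -0.45 ± 0.18, adjusted p = 0.52). Col14a1 and Col4a6 were named after their values had been seen.

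**Figure D3:**
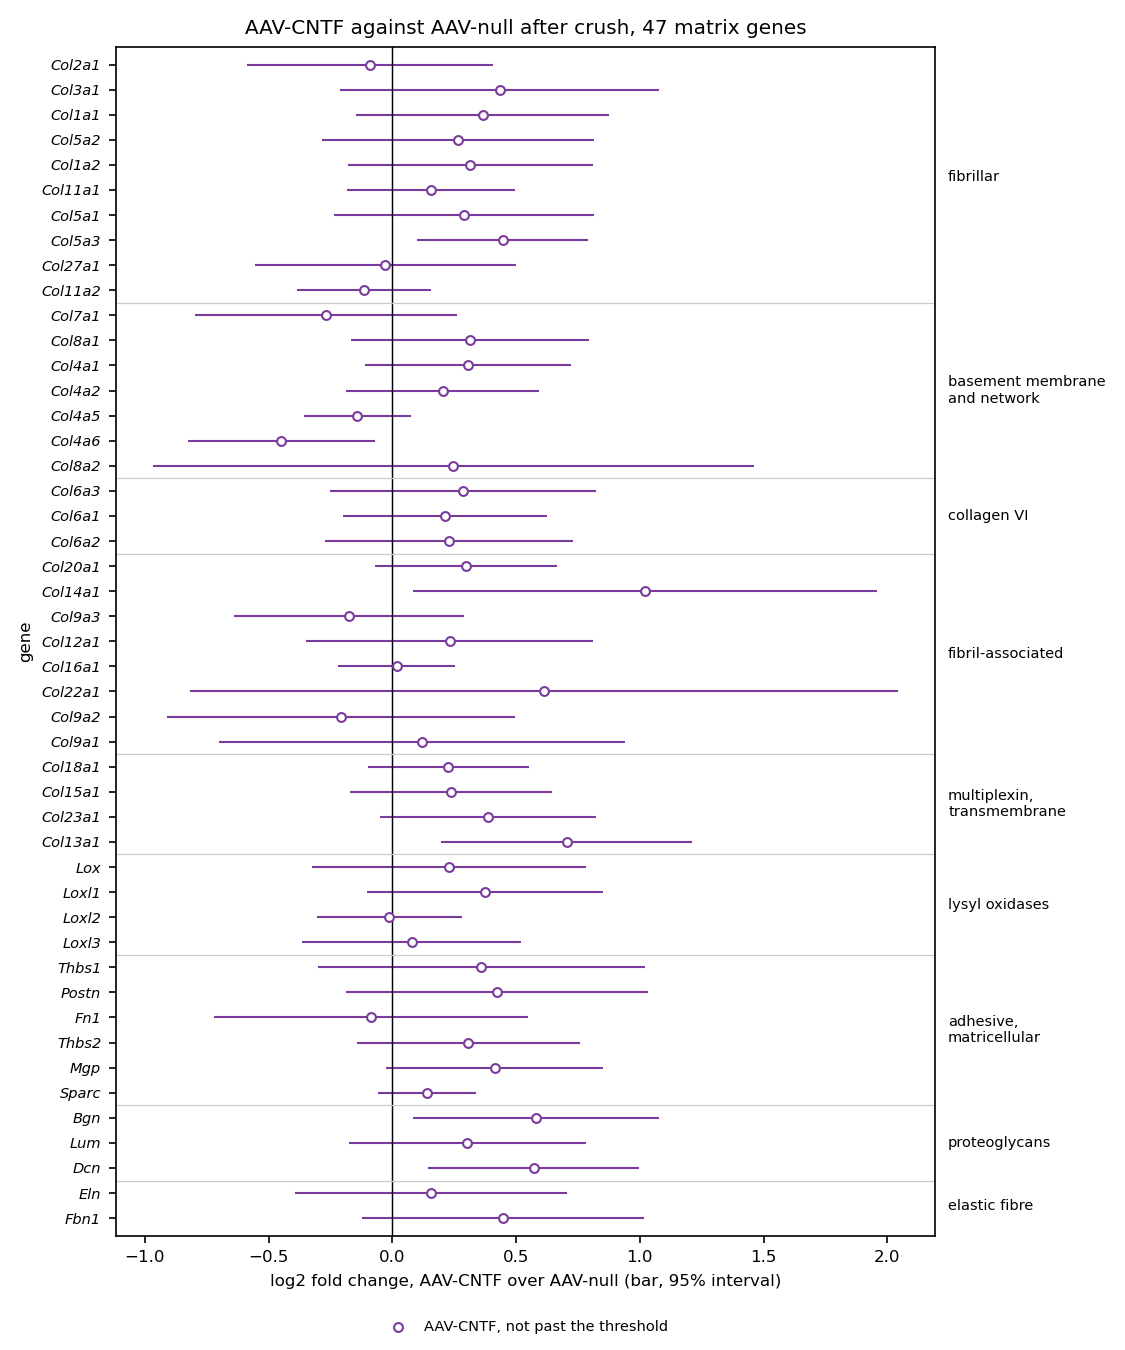
Log2 fold change (horizontal axis) of each of the 47 matrix genes in crushed nerves with AAV-CNTF against AAV-null, with 95% intervals (bars), grouped by protein class. No gene passed the threshold (open points), and 37 of the 47 estimates, 35 to 39 over the alternatives, lie to the right of 0.

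Crushed nerves with AAV-CNTF were also set against the sham nerves with AAV-null, a comparison in which injury and vector differ together and which uses the same sham libraries as above. Of the 47 genes 39 were higher, against 17% of all genes, and Col11a2 alone was lower, against 14.3%. The AAV-CNTF libraries all lay above the sham libraries for 34 genes (11.9% of all genes). The median log2 fold change was 1.65. The authors' deposited table gave 39 higher and 1 lower, and 2340 higher and 2037 lower of all 14237 listed genes. Sparc, Dcn, Col15a1 and Col23a1 passed here and not in crush against sham with AAV-null. Their log2 fold changes were 0.29 ± 0.09 and 0.15 ± 0.09 for Sparc, 1.04 ± 0.21 and 0.47 ± 0.20 for Dcn, 0.73 ± 0.20 and 0.50 ± 0.20 for Col15a1, and 0.62 ± 0.21 and 0.23 ± 0.21 for Col23a1, AAV-CNTF first. The direct comparison of AAV-CNTF with AAV-null did not pass for any of these (adjusted p 0.821, 0.449, 0.886 and 0.715 in that order). For Sparc the call was lost under upper quartile normalization (0.24, adjusted p = 0.0538) and without sham replicate 3 or 6 or crush AAV-CNTF replicate 3 or 5, with log2 fold changes of 0.24 to 0.26. For Col23a1 it was lost without sham replicate 4, 5 or 6 or crush AAV-CNTF replicate 3, 4 or 6, at 0.52 to 0.61, and on log2(FPKM + 1) (0.49, adjusted p = 0.118). Loxl3 was also lost on that scale (0.64, adjusted p = 0.205).

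In the sham and crush AAV-CNTF groups many of the genes moved with the library, and in the crush AAV-null group this was less clear. Among sham libraries replicate 4 was the highest for 26 of the 47 genes (20.5% of all genes) and replicate 6 the lowest for 30 (16.3%). Among crush AAV-CNTF libraries replicate 5 was the highest for 23 (22.2% of all genes) and replicate 2 the lowest for 25 (22.4%). Not all genes followed, and replicate 2 was the highest for 6 (21.4%). Among crush AAV-null libraries replicate 6 was the highest for 15 (22.3% of all genes). Replicate 2 of that group was the lowest for 20 (20.8%) and the highest for 12 (20.3%). The summed level of the 47 genes was 14799, 29682, 23862, 30316 and 16888 CPM in the crush AAV-CNTF libraries, and 15051, 23177, 16902, 22534 and 23425 CPM in the crush AAV-null libraries. The SD of log2 CPM was larger with AAV-CNTF than with AAV-null for 34 of the 47 genes, against 45.6% of all genes. Its median over the 47 genes was 0.49 in sham, 0.36 in crush AAV-null and 0.48 in crush AAV-CNTF libraries, and over all genes 0.32, 0.33 and 0.31.

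**Figure D4:**
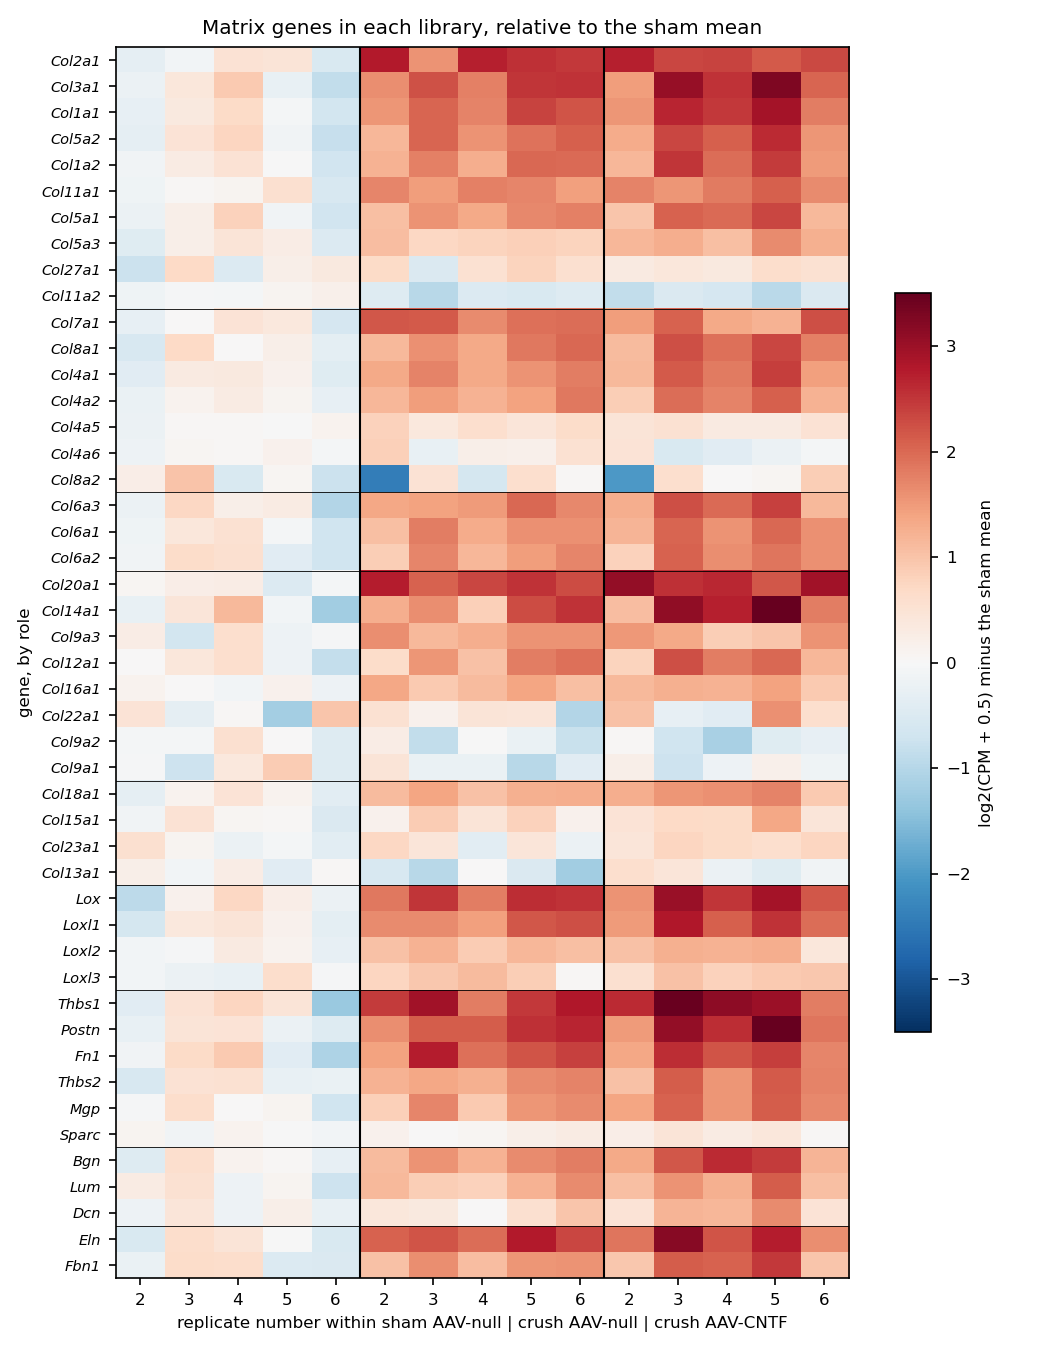
Log2 CPM of each of the 47 matrix genes (rows, by protein class) in the 15 libraries (columns), relative to the gene's mean over the sham libraries. The crushed libraries are mostly above the sham mean, and crush AAV-CNTF replicates 3 and 5 hold the highest summed levels, 29682 and 30316 CPM.

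Genes of the machinery that makes and reads this matrix were described by lists of their own, for crush against sham with AAV-null first. In that comparison 14.7% of all genes tested were higher and 12.9% lower. A count near these shares, as for trimming and fibril assembly, is not read as a result about its list. Of 22 genes for collagen folding, modification and secretion 11 were higher and 1, P4ha3, lower after crush (median log2 fold change 0.49). Colgalt1, which adds galactose to collagen lysines, rose from 40.9 to 93.9 CPM (adjusted p = 5.67e-07), and P4hb, a subunit of collagen prolyl hydroxylase, from 144 to 230.3 CPM (0.68 ± 0.09, adjusted p = 5.07e-06). Of 14 genes for elastic fibre assembly 9 were higher and none lower (median 0.88). Among them Fbn2, a fibrillin of growing tissue, rose from 3.76 to 29.3 CPM (2.96 ± 0.35, adjusted p = 1.95e-06), and Ltbp3, which holds latent TGF-beta, had a log2 fold change of 1.05 (adjusted p = 1.21e-06). Of 11 genes for procollagen trimming and fibril assembly 1 rose, Bmp1, the protease that removes the carboxyl propeptide (0.85, adjusted p = 0.000314), and 1 fell, the proteoglycan gene Podn (-0.94, adjusted p = 0.0266). Of 10 collagen receptor genes 3 rose (Itgb1, Mrc2 and Lair1) and 2 fell (Ddr1 and Adgrg1), with Lair1, a receptor of leukocytes, at 1.12 (adjusted p = 9.45e-06) and Adgrg1, a receptor for collagen III, at -0.79 (adjusted p = 2.2e-05). AAV-CNTF against AAV-null gave no call in these 4 lists, with 0.0423% of all genes higher and 0.0141% lower.

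Marker genes of the cell types that carry this matrix were read beside the 47 genes. Calls are for crush against sham with AAV-null unless another comparison is named. Over all genes tested 14.7% were higher and 12.9% lower there. Counts near these shares are not read as a result about a list. Of 13 fibroblast markers, Col1a1 among them, 5 were higher (Col1a1, Fap, Cd34, Mfap5 and Prrx1) and 2 lower (Pi16 and Clec3b) after crush. Fap was near the lower limit, at no more than 0.324 CPM in sham and 2.01 to 7.49 CPM in crush AAV-null libraries. The summed level of the 12 that are not matrix genes ran from 471 to 644 CPM in sham, 526 to 614 CPM in crush AAV-null and 459 to 1118 CPM in crush AAV-CNTF libraries, where the order by replicate was 459, 757, 632, 1118 and 589 CPM. Of 11 pericyte and smooth muscle markers 4 rose (the contractile genes Acta2, Tagln and Cnn1, and Anpep) and 2 fell (Kcnj8 and Vtn), with sums of 424 to 598, 529 to 682 and 471 to 953 CPM. Of the 12 meningeal and sheath markers Igfbp2 and Mgp rose and Ptgds and Zic1 fell. The sums without Mgp were 1151 to 3960, 1142 to 1634 and 675 to 1376 CPM. Ptgds alone held most of the mean sum in each group, at 817 to 3333, 727 to 1093 and 342 to 799 CPM. The fall in these sums therefore follows that 1 gene and is not read as a fall of the whole list. Macrophage and microglia markers rose for 10 of 11 genes, with sums of 901 to 1241, 3743 to 5964 and 3036 to 4480 CPM. Of 10 endothelial markers Cdh5 rose, Flt1, Slc2a1 and Egfl7 fell, and Plvap was higher with AAV-CNTF than with AAV-null. Of the other types, astrocyte markers fell for 7 of 8, and of 10 oligodendrocyte and NG2 glia markers Cspg4 rose and the other 9 fell. Of the Schwann cell markers 2 of 7 were listed and both fell (Cdh19 and Sox10), and of the adipocyte markers 2 of 5 were listed and 1, Lipe, fell. Skeletal muscle markers can enter with tissue around the nerve. Of 6, none passed in crush against sham with AAV-null (median log2 fold change -1.45). In crush with AAV-CNTF against sham 2 of the 6, Myh1 and Atp2a1, were lower (median -1.97), against 14.3% of all genes. Their sums were 19.3 to 207, 10.5 to 66.0 and 4.35 to 45.8 CPM, with the 207 CPM in sham replicate 5. No tested marker was at 0 counts over a whole group. The part of cell composition in the change of the 47 genes was not tested.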

How the data were processed

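The data are 15 RNA-seq libraries of optic nerve. The submitters' processing notes name Trimmomatic 0.32, STAR 2.5.3a, RSEM 1.2.31, R 3.2.3, DESeq2 and the build mm10. Gene annotation, strand setting and DESeq2's options are not given there. The labels name 2 library kits without saying which served which library. The deposited table holds, per the file headers, RSEM expected counts per gene and library, which the authors did not normalize. It holds FPKM values the authors scaled by gene length and depth. The authors also deposited a log2 fold change and an adjusted p-value for each pair of groups. Low genes are absent, since each listed gene reached 1 FPKM in 4 or more libraries of a group.

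Expected counts were rounded and fitted with edgeR 4.0.16 (R 4.3.3): TMM, filterByExpr by group, 1 mean per group over all 15 libraries, quasi-likelihood tests and Benjamini-Hochberg adjustment over 14194 genes (threshold 0.05). Alternatives used other normalizations and filters, DESeq2 1.42.0, limma 3.58.1 (voom, or log2 of FPKM plus a pseudocount of 1), a replicate block and leaving out each library. Tests were checked on simulated data. The biological coefficient of variation, the spread between replicate libraries beyond counting error, was 0.371 in common over all genes. This spread limits precision, and its sources were not tested. No pair of libraries of the same group agreed within sampling noise, and pairs across groups were not checked.

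The matrix genes and the marker and pathway lists were chosen with earlier results of these data known. Genes named with values were the 6 with the largest called change in each direction after crush (mean of at least 5 CPM), the 3 with the lowest p for AAV-CNTF against AAV-null, the most abundant per length of each class, and Col1a1, Col1a2, Col3a1, Fn1, Lox, Sparc and Eln. From each pathway list the 2 called genes with the lowest p were named. Any other gene given with values was chosen after its values had been seen. Positions came from GENCODE M21, which holds all 47 genes, and promoter letters from RefSeq (GRCm38.p6).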

Additional observations from a re-analysis of the deposited data

Results flagged for a closer look

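Of 63 groups of 5 libraries checked for a library far from the others, over the 21 genes named by the rule, 2 held one. Chance gives about 1 in 20. Col11a2 was at 31.9 CPM in crush AAV-null replicate 3, with the other 4 libraries at 43.3 to 46.0 CPM. In FPKM the same library was the highest of its group, at 12.71 FPKM, with the lowest of the others at 7.79 FPKM. Col5a3 was at 75.0 CPM in crush AAV-null replicate 2, with the others at 58.0 to 62.5 CPM.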

How the results depend on the processing

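No gene of the 47 that passed the threshold changed direction under any of the 24 alternatives run. Among estimates that had not passed, 15 values of named genes changed sign. For AAV-CNTF against AAV-null, Col16a1 (0.02) was at -0.00197 with upper quartile normalization and -0.00861 with limma-voom, and ran from -0.0410 to 0.0768 with 1 library left out, below 0 without crush AAV-null replicate 3 or 6 or crush AAV-CNTF replicate 5. In the same way Eln ran from -0.114 (without crush AAV-CNTF replicate 3) to 0.304. Fn1 ran from -0.232 to 0.0858, above 0 without crush AAV-null replicate 3 or crush AAV-CNTF replicate 2. Loxl2 ran from -0.0700 to 0.116, above 0 without crush AAV-null replicate 3 or 5 or crush AAV-CNTF replicate 6. For crush with AAV-CNTF against sham, Col13a1 (0.09) was at -0.00275 on log2(FPKM + 1) and ran from -0.0682 to 0.194, below 0 without sham replicate 5 or crush AAV-CNTF replicate 2 or 3. The cause was not tested. With each of the 15 libraries left out in turn, the count of the 47 genes higher after crush was 35 to 36 and the count lower was 1 to 2. Over the same settings AAV-CNTF against AAV-null gave 0 to 0 in either direction, and crush with AAV-CNTF against sham gave 37 to 39 higher and 1 to 1 lower. DESeq2 and limma-voom each gave 36 higher and 1 lower after crush. On log2(FPKM + 1) the median of all genes shifted from 0.00 to 0.16 after crush, and the counts were 35 and 1. No clear pairing of libraries by replicate number was seen, though a weak pairing could be missed. Over the 15 same-numbered pairs deviations correlated at -0.05 to 0.11, and over other pairs at -0.07 to 0.09. A replicate block gave 36 higher and 1 lower after crush, 0 and 0 for AAV-CNTF against AAV-null, and 39 and 1 for crush with AAV-CNTF against sham. Among the named genes 1488 of the alternative values kept direction and side of the threshold, 5 fell below it (all Sparc, crush with AAV-CNTF against sham) and 4 passed it. With 5 libraries a group, the spread within groups sets which changes can be seen. Tissue dissected with the nerve and the library kit used cannot be checked against the labels.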
